A study of Homo sapiens with 6 samples.

Results

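The 10 genes described here encode the core protein machinery that makes and uses microRNAs: DROSHA, DGCR8, XPO5, DICER1, TARBP2, AGO1, AGO2, AGO3, TNRC6A and TNRC6B. They were taken by gene symbol from a table of 62700 genes, and each symbol had 1 row. All 10 passed the filter on low counts, as did 14649 genes in all. The study depleted IGF2BP1, an RNA-binding protein that recognises N6-methyladenosine and is known to stabilise bound mRNAs, in SAS, an established squamous carcinoma line. The control group held 3 libraries of SAS cells given a control siRNA (siC), and the knockdown group held 3 libraries of SAS cells given an siRNA against IGF2BP1. Both groups are labelled WT in genotype and differ in the labels by their siRNA. Poly(A) RNA was read with a directional kit. All 6 libraries came from 1 cell line, and the labels do not say whether the replicates were separate cultures, so each p-value weighs a difference against library-to-library spread that could be technical only.

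MicroRNAs begin as hairpins inside longer transcripts. The nuclear Microprocessor, made of the nuclease DROSHA and its RNA-binding partner DGCR8, cuts the hairpin out, exportin 5 (XPO5) carries it to the cytoplasm, and DICER1 with its partner TARBP2 (TRBP) trims it to a short duplex. One strand is loaded into an Argonaute protein (AGO1 to AGO4), which finds targets through the seed (bases 2 to 8 of the microRNA), and TNRC6 (GW182) proteins then recruit the enzymes that shorten the poly(A) tail and block translation. The Microprocessor is also known to cut hairpins in the DGCR8 mRNA itself, a textbook case of a processing enzyme limiting its own partner.

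Those hairpins are shown because they link DGCR8 to the reaction it serves. Both are annotated on the plus strand of chromosome 22 (GRCh38) within an exon of DGCR8: the miR-1306 pair lies in its coding sequence, and miR-3618 lies upstream of the start codon in the 5′ UTR. The mature sequences below are RefSeq's (GRCh38.p14), written 5′ to 3′ with the seed in capitals.
hsa-miR-3618 (chr22:20085797-20085818): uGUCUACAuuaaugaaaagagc
hsa-miR-1306-5p (chr22:20086072-20086093): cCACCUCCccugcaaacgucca
hsa-miR-1306-3p (chr22:20086112-20086129): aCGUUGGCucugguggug
The 3 seeds differ from one another. Neither hairpin gene, MIR3618 or MIR1306, had a read in any of the 6 libraries, while DGCR8 itself had 551 to 1158. How reads that fall in both annotations were assigned is not given in the sources used here. The third hairpin inside a member, MIR3173, is annotated in an intron of DICER1 and also had 0 reads in all 6 libraries. Mature microRNAs, which carry no poly(A) tail, were not measured.

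The libraries held 17918496 to 26675064 reads assigned to genes, and 19392 to 20392 genes had at least 1 read. Levels are given as CPM, reads scaled to the library total and by TMM, edgeR's trimmed-mean factor between libraries. A floor of 3 reads corresponded to 0.115 to 0.165 CPM, which covers counting error only. IGF2BP1 had 185, 223 and 292 reads in the controls against 29, 25 and 21 in the knockdowns. Its log2 fold change was -3.07 (95% interval -3.71 to -2.43, edgeR adjusted p = 4.56e-06). All 12 squamous epithelial markers were detected, with summed levels of 13590 to 14550 CPM in the controls and 7895 to 9493 CPM in the knockdowns. Of the other marker lists, 3 of 10 fibroblast, 2 of 8 leukocyte, 2 of 6 endothelial and 1 of 4 melanocyte genes reached 1 CPM. COL3A1, DCN, LUM, THY1 and POSTN had 0 reads in every library, as did PTPRC, CD3E, CD3D, MS4A1 and NKG7. The epithelial sum was lower in every knockdown library, and its markers did not move as one. KRT5 had 3446 to 3853 CPM in the controls and 439 to 496 CPM in the knockdowns. KRT6A, KRT14, LAMB3, CDH1 and PKP1 were also lower in every knockdown library than in every control. KRT17 (2138 to 2420 against 2141 to 2378 CPM) and SFN (1303 to 1488 against 1275 to 1434 CPM) overlapped, as did TP63, EPCAM, ITGB4 and DSG3. The part of these markers in the results below was not tested. In RNA from whole cultures, fewer cells of a type and less RNA per cell cannot be told apart.

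The machinery was present at very unequal levels. Per kilobase of the deposited gene length, TARBP2 stood highest in the controls at 17.6 ± 1.15 CPM per kb (SD, n = 3). XPO5 at 6.19 ± 0.377 and DGCR8 at 5.92 ± 0.926 came next and did not differ beyond their spread. AGO2 at 4.21 ± 0.411 and DROSHA at 3.69 ± 1.34 were also within each other's spread, and AGO1 followed at 2.18 ± 0.147. A gap then separated these 6 genes from TNRC6A at 0.256 ± 0.106 CPM per kb, AGO3 at 0.156 ± 0.0504, TNRC6B at 0.154 ± 0.0700 and DICER1 at 0.102 ± 0.0385. The order among those last 4 was not resolved by the spread of TNRC6A, AGO3 and TNRC6B, and the deposited length of DICER1 (22151 bases) exceeds its exon bases in GENCODE 29 (12294), which would place it at 0.185 CPM per kb. DICER1 was thus read from 30 to 77 counts per library and TARBP2, its partner, from 1709 to 2334.

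**Figure D1:**
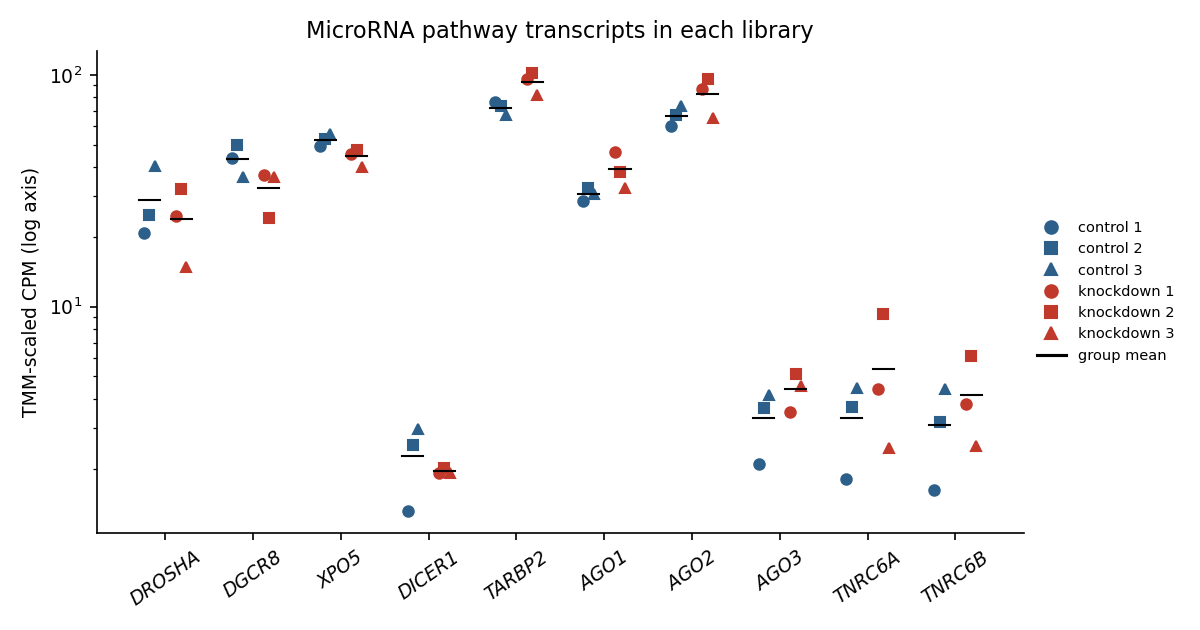
Level of each member gene in the 6 libraries, in TMM-scaled CPM on a log axis, not corrected for gene length. Points are single libraries, coloured by group. TARBP2 has the highest mean in both groups, though AGO2 lies above it in control 3. DICER1, TNRC6B, AGO3 and TNRC6A sit below the other 6 genes in both groups.

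Of the 10 genes, 1 was called higher after IGF2BP1 knockdown at an adjusted p under 0.05, 0 were called lower and 9 were not called. The gene called was TARBP2. Over all 14649 genes tested, 12.9% were called (6.27% higher and 6.66% lower, or 918 of 1893 higher, which became 1319 of 2087 with no scaling between libraries), so the members' 10% was near the background. At an unadjusted p under 0.05, 4 members stood out (TARBP2, AGO1, AGO2 and DGCR8), with 3 upward and 1 downward, against 25.7% of all genes (13.1% upward and 12.6% downward). The libraries of the 2 groups did not overlap for 2 members, TARBP2 upward and XPO5 downward, against 30.7% of all genes (15.5% upward and 15.1% downward). The members' median log2 fold change was 0.33, with 6 positive and 4 negative, and the median over all tested genes was 0.03.

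**Figure D2:**
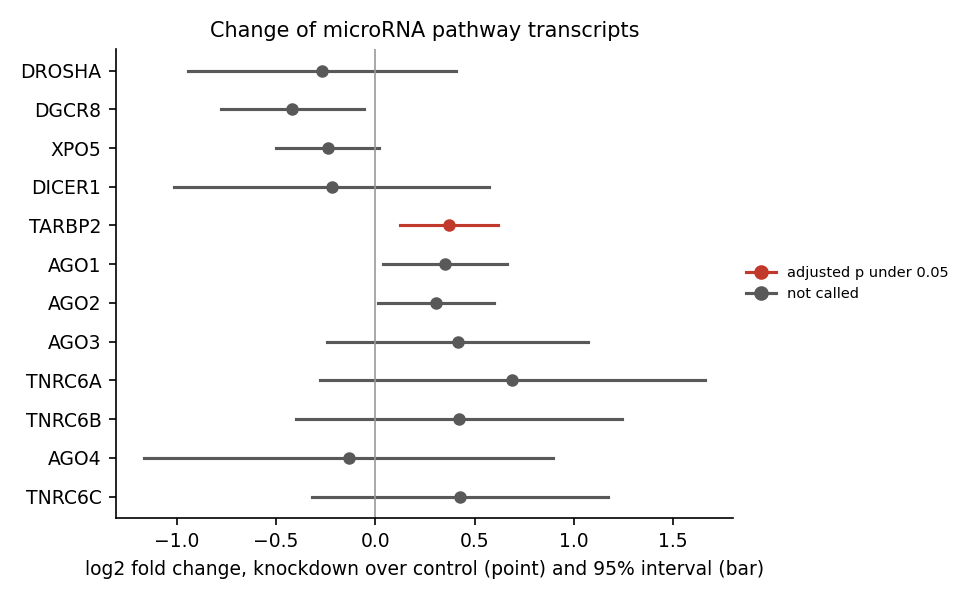
Log2 fold change of knockdown over control for each member and for the paralogs AGO4 and TNRC6C, with the 95% interval from edgeR's quasi-likelihood fit, and the zero line. The interval is narrow for the 6 well-covered members other than DROSHA and wide for the 4 members with few reads and for both paralogs. TARBP2 is the member called.

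At the nuclear step, neither partner of the Microprocessor was called changed. DROSHA, the nuclease, had 20.8, 24.9 and 40.5 CPM in the control libraries and 24.6, 32.3 and 14.8 CPM in the knockdown libraries. Control 3 was the highest and knockdown 3 the lowest, and the groups overlapped. DROSHA's log2 fold change was -0.27 (SE 0.30, 95% interval -0.95 to 0.41, edgeR adjusted p = 0.649), and it became 0.06 without control 3. DROSHA lies on the minus strand of chromosome 5 (chr5:31400497-31532196).

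DGCR8, which anchors DROSHA on the hairpin, had 44.0, 49.9 and 36.3 CPM in the controls and 37.0, 24.1 and 36.4 CPM in the knockdowns. Knockdown 2 lay below all other libraries, and control 3 lay just below knockdowns 1 and 3, so the groups overlapped. This gave a log2 fold change of -0.42 (SE 0.17, 95% interval -0.78 to -0.06, edgeR adjusted p = 0.125), and it was -0.27 without knockdown 2. Without the filter on low counts DGCR8 was called lower, at -0.44 on the log2 scale with adjusted p = 0.0284. Its gene (chr22:20080232-20111877, plus strand) shares 7.22% of its exon bases with genes on the opposite strand, TRMT2A among them, and the strand setting of the counting is not given in the sources used here. The libraries where DROSHA was highest, control 3 and knockdown 2, were those where DGCR8 was lowest within each group. The log2 ratio of DGCR8 to DROSHA reads was 1.08, 1.00 and -0.16 in the controls and 0.59, -0.42 and 1.29 in the knockdowns. The ratio varied more within groups than between them, with a difference of -0.15 (two-sided exact permutation p = 0.8).

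XPO5, the export receptor, had 49.2, 52.6 and 55.6 CPM in the controls and 45.7, 47.6 and 40.1 CPM in the knockdowns. Every knockdown library lay below every control library. The difference was small, at a log2 fold change of -0.24 (SE 0.12, 95% interval -0.50 to 0.02), and was not called by edgeR (adjusted p = 0.232). As a ratio to the control level, the interval ran from 0.708 to 1.01. XPO5 lies on the minus strand of chromosome 6 (chr6:43522330-43576075).

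At the cytoplasmic cut, TARBP2 was called higher in the main fit, and its nuclease partner DICER1 was not called changed. TARBP2, the double-stranded RNA-binding protein that helps DICER1 hold its substrate, had 76.0, 73.6 and 66.9 CPM in the controls and 95.6, 102 and 82.2 CPM in the knockdowns. All 3 knockdown libraries exceeded all 3 controls. The mean went from 72.2 ± 4.71 CPM to 93.3 ± 10.2 CPM (SD, n = 3 each), a 1.29-fold difference (95% interval 1.09 to 1.53). The log2 fold change of 0.37 (SE 0.12) passed narrowly in edgeR, at an adjusted p of 0.0452. DESeq2's size-factor method within edgeR (RLE, adjusted p = 0.0643) and limma-voom (0.0588) did not give the call. Nor did it hold when control 1, control 2, control 3, knockdown 1 or knockdown 2 was left out, with adjusted p-values up to 0.186, while the fold change stayed between 0.27 and 0.46 on the log2 scale over all 14 alternatives. TARBP2 (chr12:53500921-53506431, plus strand) is the most GC-rich member, at 60.79%, and the shortest, at 4090 bases.

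DICER1, which cuts the hairpin to its mature length, had 1.31, 2.54 and 2.95 CPM in the controls and 1.92, 2.01 and 1.92 CPM in the knockdowns. The knockdown libraries fell between control 1 and control 2. DICER1 had a log2 fold change of -0.22 (SE 0.37, 95% interval -1.01 to 0.57, edgeR adjusted p = 0.772), and it was 0.01 without control 3. Counting error alone spans 20.2 to 42.8 reads for the 30 reads of control 1 and 44.9 to 76.1 for the 59 of control 2 (exact Poisson, 95%). These do not overlap, so the controls varied beyond counting error. DICER1 lies on the minus strand of chromosome 14 (chr14:95086228-95158010). The log2 ratio of TARBP2 to DICER1 reads was 0.50 higher in the knockdowns (two-sided exact permutation p = 0.4).

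Among the Argonautes, AGO2 and AGO1 had higher means after knockdown, but neither was called. AGO2, which is able to slice a perfectly paired target, had 60.0, 67.1 and 73.0 CPM in the controls and 87.0, 95.5 and 65.1 CPM in the knockdowns. Knockdowns 1 and 2 lay above every control, and knockdown 3 lay among them. Its log2 fold change was 0.31 (SE 0.14, 95% interval 0.01 to 0.60, edgeR adjusted p = 0.173).

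AGO1 had 28.5, 32.6 and 30.6 CPM in the controls and 46.6, 38.2 and 32.4 CPM in the knockdowns. Knockdown 3 was again the lowest of its group and fell just under control 2. For AGO1 the log2 fold change was 0.35 (SE 0.15, 95% interval 0.04 to 0.67, edgeR adjusted p = 0.142). Neither AGO1 nor AGO2 was called under any of the 14 alternatives, in which the adjusted p of AGO1 was 0.0643 to 0.442 and that of AGO2 0.0507 to 0.535. Over these alternatives the log2 fold change ran from 0.20 to 0.47 for AGO1 and from 0.16 to 0.45 for AGO2.

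AGO3 was far scarcer, at 2.1, 3.66 and 4.14 CPM in the controls and 3.52, 5.12 and 4.57 CPM in the knockdowns. Control 1 was the lowest library and the groups overlapped. AGO3's log2 fold change was 0.41 (SE 0.31, 95% interval -0.24 to 1.07, edgeR adjusted p = 0.448), and it was 0.15 without control 1 and 0.27 without knockdown 2. AGO4, the remaining paralog, had 17 to 30 reads per library and a log2 fold change of -0.13 (95% interval -1.17 to 0.90, adjusted p = 0.900).

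Of the Argonaute reads corrected for length, AGO2 held 62.9 ± 1.65% in the controls and 62.4 ± 2.97% in the knockdowns (SD, n = 3 each). AGO1 held 32.6 ± 1.75% and 33.5 ± 3.42%. The remaining 2 paralogs were minor: AGO3 held 2.30 ± 0.578% and 2.56 ± 0.698%, and AGO4 2.17 ± 0.307% and 1.57 ± 0.280%. The shares of AGO1, AGO2 and AGO3 differed between groups by less than the spread between libraries. Those of AGO4 did not overlap, but rest on few reads and were not tested. The log2 ratio of AGO1 to AGO2 reads differed by 0.05 between the groups (two-sided exact permutation p = 0.8) and that of AGO3 to AGO2 by 0.16 (p = 0.7). AGO4, AGO1 and AGO3 lie head to tail on the plus strand of chromosome 1, with 11917 bases between AGO4 and AGO1 (chr1:35869808-35930528) and 189 bases between AGO1 and AGO3 (chr1:35930718-36072500). These neighbours differed in level: AGO1 stood at 2.18 CPM per kb in the controls and AGO3 at 0.156.

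The TNRC6 scaffolds, which bridge Argonaute to the deadenylases, were read from few counts. TNRC6A had 41, 86 and 116 reads in the controls and 80, 212 and 64 in the knockdowns, or 1.80, 3.70 and 4.45 CPM against 4.40, 9.28 and 2.46 CPM. Knockdown 2 alone stood above all controls. TNRC6A had a log2 fold change of 0.69 (SE 0.45, 95% interval -0.28 to 1.66, edgeR adjusted p = 0.378), and it was 0.00 without knockdown 2, so the mean difference rested on that library.

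TNRC6B had a like profile, at 1.62, 3.19 and 4.41 CPM in the controls and 3.79, 6.13 and 2.5 CPM in the knockdowns. Control 1 was again the lowest and knockdown 2 the highest. Its log2 fold change was 0.42 (SE 0.39, 95% interval -0.40 to 1.24, edgeR adjusted p = 0.552), and it was -0.01 without knockdown 2. TNRC6C, the remaining paralog, had a log2 fold change of 0.43 (95% interval -0.32 to 1.17, adjusted p = 0.50). Of the TNRC6 reads corrected for length, TNRC6A held 41.2 ± 4.11% in the controls and 44.4 ± 7.73% in the knockdowns (SD, n = 3 each). The log2 ratio of TNRC6B to TNRC6A reads was 0.14 lower in mean after knockdown, at -0.13 in the controls and -0.26 in the knockdowns (two-sided exact permutation p = 0.7). TNRC6A lies on chromosome 16 (chr16:24610209-24827632) and TNRC6B on chromosome 22 (chr22:40044817-40335808), both on the plus strand.

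Adjusted over the 5 ratios of members, every permutation p was 0.8, and 3 libraries against 3 cannot give a p below 0.1. The direction of 4 of these ratios turned when 1 library was left out. AGO1/AGO2 became -0.02 without control 3 and -0.04 without knockdown 1, AGO3/AGO2 became -0.06 without control 1 and -0.03 without knockdown 3, and TNRC6B/TNRC6A became 0.03 without knockdown 2. DGCR8/DROSHA became 0.07 without control 1, 0.02 without control 2 and 0.30 without knockdown 2.

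The members split into 2 sets by coverage. Those with at least 1000 reads in all, TARBP2, XPO5, DGCR8, AGO2, AGO1 and DROSHA, ranged over 14.8 to 102 CPM, with standard errors of 0.12 to 0.30 on the log2 scale. The 4 with fewer, TNRC6A, AGO3, TNRC6B and DICER1, ranged over 1.31 to 9.28 CPM, with standard errors of 0.31 to 0.45. The 95% interval stayed within a 2-fold change in either direction for 6 members and reached beyond it for 4. Each of those 4 did so on 1 side: as a ratio to the control level, the interval was 0.496 to 1.49 for DICER1, 0.846 to 2.1 for AGO3, 0.823 to 3.17 for TNRC6A and 0.759 to 2.37 for TNRC6B.

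The 4 scarce members also tend to be long and low in GC. Their deposited lengths were 12968 to 22151 bases, against 4090 to 15847 bases for the other 6. The GC content of the longest annotated transcript was 38.93 to 45.92%, against 45.79 to 60.79% for the other 6. Across the 14256 tested genes with a GC value, the level per kilobase ran with GC content (Spearman rho 0.442, given as a description, since genes share libraries and are not independent). The median was 0.503 CPM per kb for 4269 genes under 45% GC and 6.42 for 4972 genes over 55%. GC content did not order the members cleanly: TNRC6A at 45.92% stood at 0.256 CPM per kb, while DROSHA at 45.79%, AGO1 at 46.38% and AGO2 at 46.62% stood at 3.69, 2.18 and 4.21. The part of GC content in the members' levels was not tested.

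Within each group some members deviated in the direction of the GC-poor genes, in some libraries. Genes under 45% GC deviated from their group mean by a median of -0.22 in control 1, 0.10 in control 2 and 0.13 in control 3 on the log2 scale. The same median was -0.17 in knockdown 1, 0.23 in knockdown 2 and 0.00 in knockdown 3. In control 1, TNRC6A deviated by -0.76, TNRC6B by -0.78, DICER1 by -0.68 and AGO3 by -0.58, all in the direction of the GC-poor genes, as did the better covered DROSHA, by -0.41. TNRC6A (45.92%) and DROSHA (45.79%) themselves lie above the 45% limit. In control 2, TNRC6A deviated by 0.25, DICER1 by 0.23, AGO3 by 0.20 and TNRC6B by 0.16, but DROSHA by -0.145. In control 3 all of these deviated upward, by 0.375 (AGO3) to 0.62 (TNRC6B). In knockdown 2, TNRC6A deviated by 0.98, TNRC6B by 0.65, DROSHA by 0.50 and AGO3 by 0.23, again in the direction of the GC-poor genes, while DICER1 deviated by 0.04. Knockdown 1 showed less of this: AGO3 deviated by -0.30, TNRC6A by -0.08, TNRC6B by -0.03 and DICER1 by -0.02, and DROSHA by 0.11. In knockdown 3, TNRC6A stood at -0.90, TNRC6B at -0.62 and DROSHA at -0.62 beside a median of 0.00 for GC-poor genes. With a per-library correction for GC content, an alternative chosen after the data were seen, TARBP2 remained the 1 member called (log2 fold change 0.35, adjusted p = 0.0426), and DGCR8 had an adjusted p of 0.0813.

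**Figure D3:**
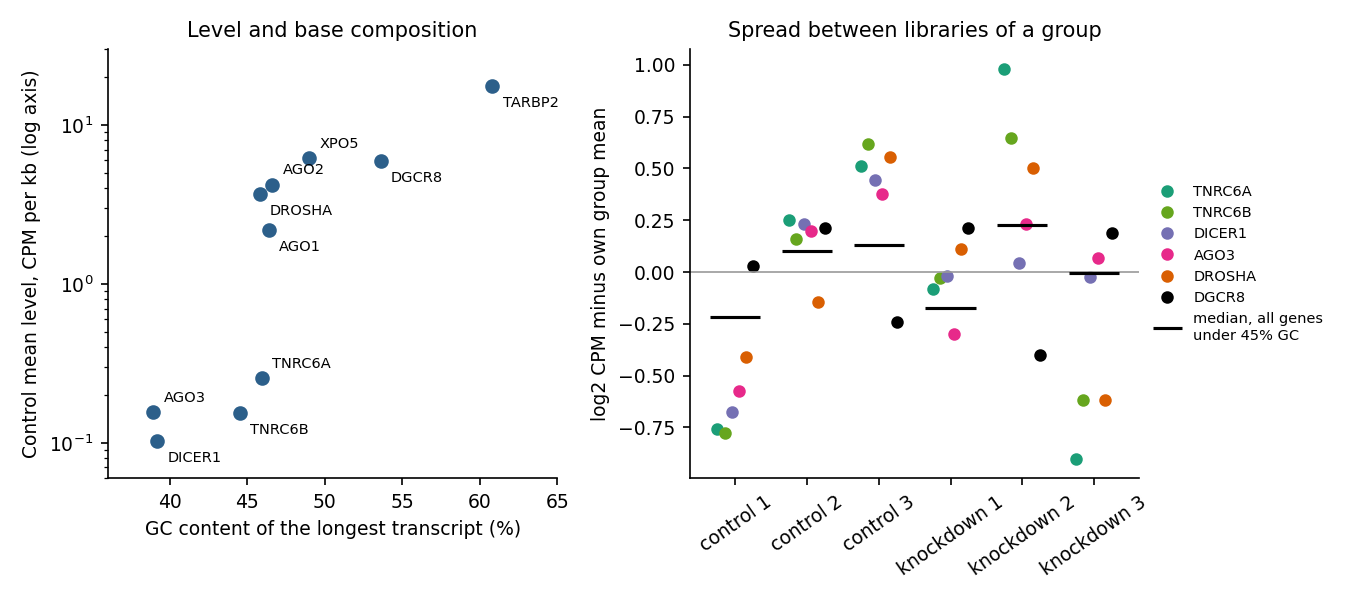
Left, control mean level of each member in CPM per kb (log axis) against the GC content of its longest transcript. Right, deviation of TNRC6A, TNRC6B, DICER1, AGO3, DROSHA and DGCR8 from their group mean in each library, on the log2 scale. The median deviation of all tested genes under 45% GC is drawn beside them, and TARBP2, XPO5, AGO1 and AGO2 are not drawn on the right. TNRC6A, TNRC6B, DICER1 and AGO3 sit low in control 1, and TNRC6A and TNRC6B sit high in knockdown 2.

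The wider pathway was read from 2 further lists. Of 37 genes that regulate microRNA production, 33 were tested, and 0 were called higher and 2 lower (6.06%, against 12.9% of all genes), with a median log2 fold change of 0.01. LIN28A, LIN28B and TRIM71 had 0 reads and TUT7 had 37 in all. The lower genes were 2 RNA-binding regulators. ZC3H12A (Regnase-1), an endonuclease that degrades stem-loop mRNAs and some precursor microRNAs, fell from 244 ± 2.23 CPM to 122 ± 8.32 CPM (SD, n = 3 each), with log2 fold change -1.0 (SE 0.10, edgeR adjusted p = 4.95e-06). KHSRP, which binds terminal loops of some precursors and aids their processing, fell from 579 ± 53.5 CPM to 419 ± 52.6 CPM, with log2 fold change -0.47 (SE 0.11, adjusted p = 0.0111). The KHSRP call was lost without knockdown 3 (adjusted p = 0.0581).

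Of 50 genes that act with or after Argonaute (deadenylases, decapping factors, chaperones and the like), all were tested, and 0 were called higher and 3 lower (6%), with a median of -0.05. EDC3, a decapping scaffold of P-bodies, fell from 87.5 ± 3.53 CPM to 56.6 ± 7.45 CPM, with log2 fold change -0.63 (SE 0.12, adjusted p = 0.00215). HSPA8 and DNAJB1, chaperones of the HSC70 system that is known to help load Argonaute, were called lower at log2 fold changes of -0.57 (adjusted p = 0.0138) and -0.39 (adjusted p = 0.0216). The HSPA8 call was lost without control 2, control 3 or knockdown 1 (adjusted p up to 0.0754). EDC3 shares 13.7% of its exon bases with CLK3 on the opposite strand, and DNAJB1 6.21% with TECR.

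Transcripts that carry microRNA hairpins are the substrates of this machinery. Of 40 such host genes, 35 were tested, and 6 were called higher and 4 lower (28.6%, against 12.9% of all genes), with a median of 0.06. With a stricter count filter (at least 5 CPM in at least 3 libraries), 8 of 24 were called, against 23.3% of all genes. The list was chosen with results of these data known, so its share of calls is no independent evidence. The host's level is not that of its microRNA. The members and hosts hold 72 annotated hairpins, of which 71 have a row in the table and 53 had 0 reads in every library. The hairpins of the hosts lie in introns in 51 cases, in exons in 16 and across an exon edge in 2.

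The hosts are grouped here by the seed of the microRNA they carry, since microRNAs of 1 seed share predicted targets. Of the 13 seeds with more than 1 host, 3 that include a called host are shown, chosen after the calls were seen, so that the shared letters can be read (RefSeq, GRCh38.p14, 5′ to 3′, seed in capitals).
hsa-let-7a-5p (MIR100HG, MIRLET7BHG): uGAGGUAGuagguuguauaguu
hsa-let-7b-5p (MIRLET7BHG): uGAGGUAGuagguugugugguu
hsa-miR-98-5p (HUWE1): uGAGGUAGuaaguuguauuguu
hsa-let-7f-5p (HUWE1): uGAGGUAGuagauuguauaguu
hsa-let-7g-5p (WDR82): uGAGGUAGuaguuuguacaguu
hsa-miR-33b-5p (SREBF1): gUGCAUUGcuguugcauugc
hsa-miR-33a-5p (SREBF2): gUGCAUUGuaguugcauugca
hsa-miR-26a-5p (CTDSP2, CTDSPL): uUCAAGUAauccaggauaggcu
hsa-miR-26b-5p (CTDSP1): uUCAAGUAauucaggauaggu
For each of these 3 seeds, 1 host was called and the others tested were not. For 6 of the other seeds no host tested was called. In all, 7 seeds had a called host. For the seeds of miR-100-5p and miR-125b-5p, MIR100HG was the 1 host tested, and it was called. For the seeds of miR-26a-1-3p and let-7a-2-3p, 1 of the 2 hosts tested was called. For the let-7 seed, MIR100HG was called higher and the other 3 hosts tested were not called. MIR100HG, a long noncoding RNA, had 9, 19 and 16 reads in the controls and 33, 53 and 63 in the knockdowns, which did not overlap. Its log2 fold change was 1.84 (95% interval 0.90 to 2.77, edgeR adjusted p = 0.0108). MIRLET7BHG went the other way, at -0.50 (95% interval -0.88 to -0.13, adjusted p = 0.0739, not called). HUWE1, at 0.16 (95% interval -0.41 to 0.74), and WDR82, at 0.07 (95% interval -0.15 to 0.30), were not called, and MIR99AHG had 0 reads and was not tested.

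The miR-33 seed sits in introns of the genes for the sterol regulators SREBF1 and SREBF2. SREBF1, which drives fatty acid synthesis genes, had 562, 499 and 499 CPM in the controls and 269, 221 and 258 CPM in the knockdowns. Every knockdown library lay far below every control, at a ratio of 0.480 and a log2 fold change of -1.06 (SE 0.11, edgeR adjusted p = 5.89e-06). SREBF2, which drives cholesterol synthesis genes, had a log2 fold change of -0.26 (95% interval -0.52 to 0.00, adjusted p = 0.201) and was not called. For the miR-26 seed, CTDSP2 fell from 236 ± 4.73 CPM to 163 ± 21.9 CPM (log2 fold change -0.53, adjusted p = 0.00393). Its paralogs were not called: CTDSPL stood at -0.23 (adjusted p = 0.256) and CTDSP1 at 0.17 (adjusted p = 0.404). The differences between hosts of 1 seed were not tested.

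**Figure D4:**
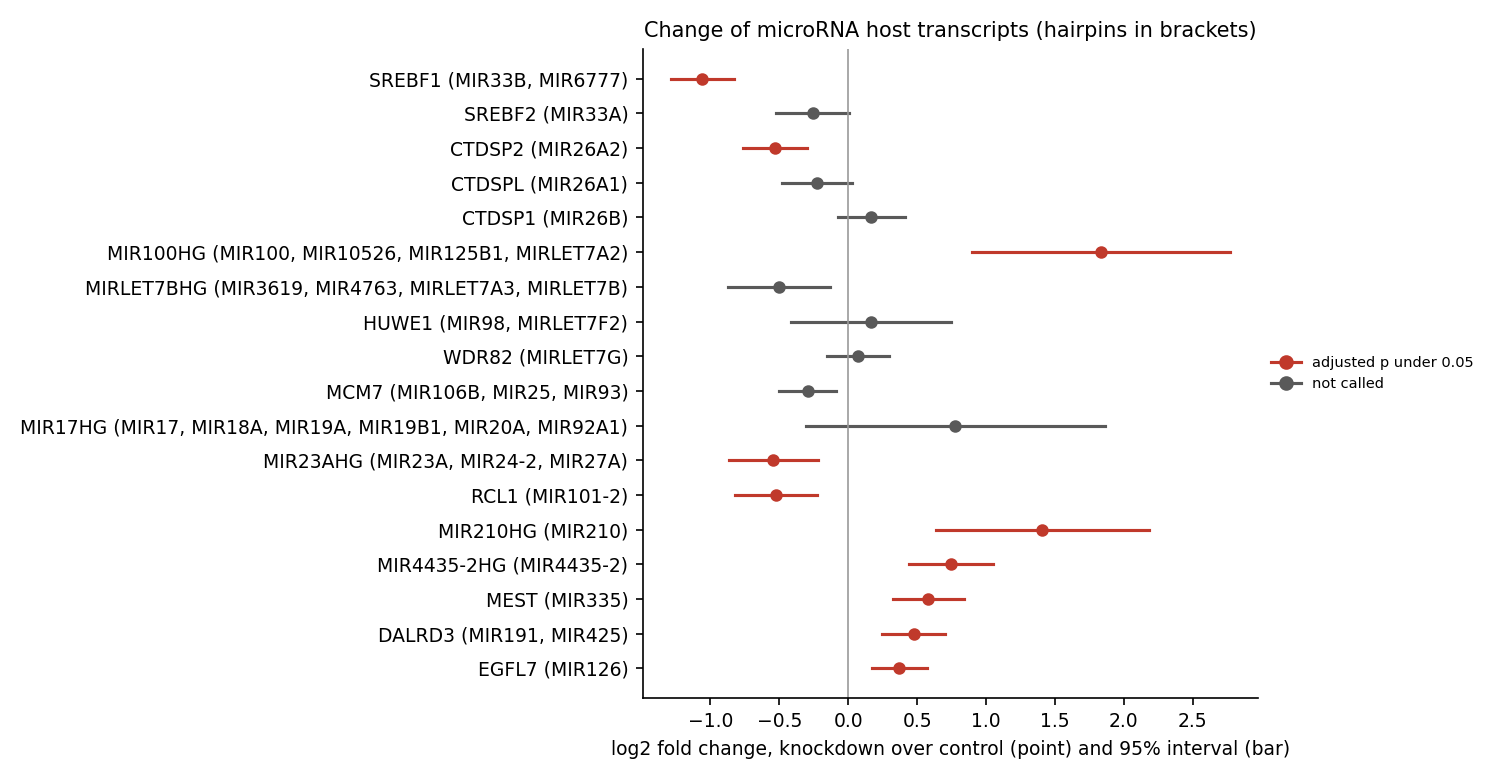
Log2 fold change of selected host genes of microRNA hairpins, with the 95% interval from edgeR's quasi-likelihood fit, coloured by call. Of the 35 hosts tested, all 10 called are drawn but only some of the 25 not called. The share of called hosts in the figure is therefore higher than among all tested hosts. MIR100HG and MIR210HG lie farthest to the higher side and SREBF1 farthest to the lower side.

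Of the remaining hosts called, the hypoxia-linked MIR210HG had 62, 23 and 39 reads in the controls and 91, 85 and 133 in the knockdowns. Its log2 fold change was 1.41 (95% interval 0.64 to 2.18, edgeR adjusted p = 0.0159). Without control 2, control 3 or knockdown 3 it was not called (adjusted p up to 0.0884). Its microRNA is shown beside those of MIR23AHG, a host called in the opposite direction. The 4 seeds are different.
hsa-miR-210-3p (MIR210HG): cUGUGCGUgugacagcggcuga
hsa-miR-23a-3p (MIR23AHG): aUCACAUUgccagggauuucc
hsa-miR-27a-3p (MIR23AHG): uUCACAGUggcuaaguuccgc
hsa-miR-24-3p (MIR23AHG): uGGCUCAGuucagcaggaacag
MIR23AHG, where all 3 hairpins are exonic, fell from 44.1 ± 8.34 CPM to 30.3 ± 3.24 CPM (log2 fold change -0.54, adjusted p = 0.0250). With no scaling between libraries it was not called (0.0508), nor when control 1, control 2 or knockdown 3 was left out (up to 0.113). RCL1, the host of miR-101-2, was called lower at -0.52 (adjusted p = 0.0207), a call lost without control 1, control 2 or knockdown 3 (up to 0.0853).

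The other 4 hosts were called higher. MIR4435-2HG had log2 fold change 0.75 (adjusted p = 0.00242) and MEST, the host of miR-335, at 0.58 (adjusted p = 0.00425). DALRD3, the host of miR-191 and miR-425, stood at 0.47 (adjusted p = 0.00786) and EGFL7, the host of miR-126, at 0.37 (adjusted p = 0.0155). The DALRD3 call was lost without control 2 or knockdown 3 (adjusted p up to 0.0640), and that of EGFL7 without control 1, control 2, control 3 or knockdown 2 (up to 0.0839). MEST and DALRD3 share 27.4% and 27.0% of their exon bases with genes on the opposite strand, MIR23AHG 12.0% and SREBF1 6.92%. MCM7, a replication helicase subunit that carries the miR-106b, miR-93 and miR-25 hairpins in an intron, was not called (log2 fold change -0.29, adjusted p = 0.0615).

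Rows for hairpins themselves gave little signal. Of 1879 microRNA rows in the table, 199 had any read and 24 passed the filter, and poly(A) RNA does not hold mature microRNAs. MIR25, singled out after its values were seen, had 151, 234 and 146 reads in the controls and 82, 82 and 76 in the knockdowns. Its log2 fold change was -1.02 (95% interval -1.62 to -0.42, edgeR adjusted p = 0.0242). The call was lost without control 2 or knockdown 3 (adjusted p up to 0.166). MIR106B, in the same intron cluster, was not called (log2 fold change -2.26, 95% interval -3.81 to -0.71, adjusted p = 0.0525).

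Downstream, 27 established let-7 targets were read as a list, since IGF2BP1 and DICER1 are themselves known let-7 targets. Of the 24 tested, 1 was called higher and 4 lower (20.8%, against 12.9% of all genes), with a median log2 fold change of -0.13. Under the stricter count filter 5 of 21 were called, against 23.3% of all genes. IGF2BP1, the siRNA's own target, is 1 of the 4 lower genes. CDC25A, a phosphatase that drives cell cycle progression, fell from 115 ± 13.0 CPM to 56.9 ± 8.36 CPM (log2 fold change -1.02, adjusted p = 6.12e-05). E2F2, a cell-cycle transcription factor, was called lower at -0.79 (adjusted p = 0.0160), and MYC at -0.34 (adjusted p = 0.0449). MYC was not called with no scaling, or when control 1, control 3, knockdown 2 or knockdown 3 was left out (adjusted p up to 0.131). PLAGL2, a zinc finger transcription factor, was called higher at 0.56 (adjusted p = 0.00963), a call lost without control 2 (0.0593). The list was chosen with results of these data known, so its direction is no independent evidence.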

How the data were processed

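Poly(A) RNA of 6 SAS libraries was measured (3 control siRNA, 3 IGF2BP1 siRNA). The deposited values are raw read counts per gene; per the submitters' processing notes the authors used cutadapt 2.8, HISAT2 2.1.0, SAMtools 1.10, featureCounts 2.0.0 and hg38. No source used here gives the annotation release, the strand setting or the handling of reads with several positions. Of the symbols, 5524 were restored by gene ID, and 20357 rows have none. Positions, exon overlaps and GC content (of the longest transcript of each gene) came from GENCODE 29 (GRCh38), and microRNA sequences from RefSeq.

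Counts were tested on all genes with edgeR 4.0.16 in R 4.3.3: filterByExpr (minimum count 10, minimum total 15), TMM scaling, the robust quasi-likelihood test, and Benjamini-Hochberg adjustment over 14649 genes, with a call at adjusted p under 0.05. Ratios of 2 members within a library were compared by a two-sided exact permutation test. The procedure was tested on simulated counts, which held no GC-linked deviations between libraries. Replicates differed beyond counting noise (chi-square per degree of freedom 14.58 to 36.21), so none was a copy. Alternatives used other scaling and filters, a replicate block, DESeq2 1.42.0, limma-voom 3.58.1, leaving out each library, and a GC correction chosen after the data were seen. Named were all members, AGO4, TNRC6C, IGF2BP1 and every called gene of the lists; hosts sharing a seed with a called host, MCM7 and the microRNA rows were named after their values were seen. The members and lists were chosen with earlier results of these data known.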

Additional observations from a re-analysis of the deposited data

How the results depend on the processing

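The number of members called was 1 of 10, and stayed 1 with DESeq2, no scaling, a replicate block and the GC correction. In those fits 15.1%, 14.2%, 16.6% and 16.9% of all genes were called, against 12.9% in the main fit. The number was also 1 with a stricter count filter, which tested 6 members and called 23.3% of all genes. It was 0 with RLE scaling (13.2% of all genes) and with limma-voom (12.5%), and 2 with no count filter (8.85%). Leaving out each library gave 0 to 1, beside 8.07% to 12.8% of all genes. The cause of these shifts in the number of members called was not tested. Over all genes, 1893 were called, 1231 to 1948 when each library was left out (1231 without control 2), 2431 with the replicate block and 2407 with the GC correction, while no scaling moved the median of all genes from 0.03 to 0.12. The log2 fold change when each library was left out ran from -0.52 to 0.0107 for DICER1, from -0.58 to 0.0575 for DROSHA, from -0.0082 to 0.78 for TNRC6B, from 0.15 to 0.61 for AGO3, from -0.55 to -0.27 for DGCR8 and from 0.0027 to 1.04 for TNRC6A. The within-library ratios ran from -0.0421 to 0.17 for AGO1/AGO2, -0.06 to 0.36 for AGO3/AGO2, -0.28 to 0.0303 for TNRC6B/TNRC6A, -0.56 to 0.30 for DGCR8/DROSHA and 0.22 to 0.89 for TARBP2/DICER1.

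The numbers of the libraries were not taken as pairs: deviations of same-numbered libraries correlated at 0.179, 0.086 and -0.073, and control 3 correlated best with knockdown 2 (0.166). Calls of the biogenesis list were 4 of 33 with the replicate block and 1 of 33 without knockdown 3, against 2. Over all genes 16.6% and 8.54% were called in those fits, against 12.9% in the main fit. Hosts called fell to 5 of 35 without control 2, against 10, where 8.07% of all genes were called. With the GC correction 5 of 50 silencing genes and 8 of 24 let-7 targets were called, against 3 and 5. That correction called 16.9% of all genes. Of 19 named list genes called, apart from members and IGF2BP1, 10 kept the call in every alternative that tested them and 9 lost it in at least 1. DICER1, AGO3, TNRC6A and TNRC6B had the fewest reads, 30 to 212 per library, and standard errors of 0.31 to 0.45, against 0.30 for DROSHA with more reads. The parts of depth and of spread between libraries were not separated.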
